A study of Homo sapiens with 15 samples.

Results

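The members were 6342 regions of open chromatin on chromosome 19 outside the bodies of zinc finger genes, of 295008 regions in the whole series. Overlapping peaks (1 bp or more) were joined across the 15 lists, a region was kept when at least 2 libraries held a peak in it, and chromosome 19 regions were taken when their midpoint lay outside every gene whose name begins with ZNF or ZFP. The 306 such genes of the chromosome held another 575 regions, which were set apart. The rule goes by name, so zinc finger genes with other names, such as ZSCAN5A, ZSCAN4 and ZBTB45, stayed among the members. Regions assigned to a ZNF gene but with their midpoint outside such bodies also stayed, among them 3 lost members of ZNF331. Chromatin accessibility was profiled by ATAC-seq, in which a transposase inserts sequencing adapters where DNA is not wrapped or covered, in RPTEC, a human renal proximal tubule epithelial line immortalized with hTERT. There were 5 groups of 3 libraries each: SETD2 wild type (WT), 2 knockout clones (KO1 and KO2) and 2 rescue clones (Rescue1 and Rescue2). All groups carried the hTERT construct of the parent line. KO clones were made with CRISPR frameshifts in exon 3 of SETD2, and rescue clones were single colonies of KO cells that received full-length FLAG-tagged SETD2 by lentivirus under blasticidin selection. The study's names for both rescue clones contain the name of the KO2 line. KO below means the 6 libraries of both KO clones and rescue the 6 libraries of both rescue clones. Each clone is 1 line, so its 3 libraries measured spread between libraries and not between independent edits. The lists hold no expression values, so the loss of SETD2 itself could not be checked from them.

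SETD2 is the methyltransferase that places trimethylation on lysine 36 of histone H3 (H3K36me3), mostly over the bodies of transcribed genes, and its gene is a recurrent target of mutation in kidney cancer of the clear cell type. The mark recruits proteins that keep histone acetylation low and DNA methylated within genes. Chromosome 19 is the most gene-dense human chromosome, rich in GC and Alu repeats, with long arrays of related genes such as the kallikreins, SIGLEC and LILR receptors, NLRP genes, CEACAM and PSG genes. Zinc finger genes of the same chromosome lie in large H3K36me3-marked arrays, and those named ZNF or ZFP were therefore counted apart here.

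Members were nearer to genes than other accessible regions. Their median GC content was 56.3% against 47.8% over all regions, 35.9% were promoters (within 1 kb of a transcript start) against 15.8% on all other chromosomes, and 36.9% lay in introns, 22.4% between genes and 4.76% in exons. A peak was called in all 15 libraries in 2566 members, which is 40.5% of them, with a median width of 530 bp against 274 bp over all members. A region joins the peaks of all its libraries, so width can rise with their number by construction. The rule on libraries left 619 members with a peak in exactly 2 libraries, with a median of 4.42 for their highest fold enrichment, and left out 1442 regions with a peak in 1 library, where that median was 3.92.

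Each library held between 196969 and 265193 peaks. WT libraries held 196969 to 212373, KO libraries 204028 to 254650 and rescue libraries 208067 to 265193. The mean GC content of regions with a peak was 49.8% in WT, 49.0 to 49.3% in KO and 49.4 to 49.7% in rescue libraries. Peak number and GC content moved with the groups, and their part in the results was not tested. Of 15 promoters that mark kidney tubule epithelium, 13 or 14 held a peak in every library, and no library had one at HNF4A. Promoters of other cell types also held peaks, 4 or 5 of 5 for fibroblast, 2 or 3 of 4 for endothelium and 1 to 3 of 4 for leukocytes, with no peak in any library at TEK or PTPRC. Peaks were called in each library alone and a region without a peak was below that library's threshold, which does not show that its chromatin was closed.

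Sequences of some members that were lost and came back are printed here as examples. A member is called lost when all 3 WT libraries held a peak and no KO library did, and lost and returned when all 6 rescue libraries held one as well. The members that follow are among the lost and returned members with the highest fold enrichment ranks. Each line gives 200 bases of the hg38 plus strand around the mean summit in lower case, with capitals where 1 of the 12 searched motifs matched on either strand. SCGB2B2, HAUS5, GPR32 and FFAR2 are the nearest genes of these intergenic regions. The windows are chr19:34588334-34588533, chr19:35605148-35605347, chr19:50767323-50767522 and chr19:35468815-35469014.
SCGB2B2: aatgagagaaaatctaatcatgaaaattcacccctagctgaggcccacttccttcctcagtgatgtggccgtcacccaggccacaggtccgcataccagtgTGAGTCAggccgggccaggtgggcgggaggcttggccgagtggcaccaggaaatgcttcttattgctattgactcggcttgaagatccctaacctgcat
HAUS5: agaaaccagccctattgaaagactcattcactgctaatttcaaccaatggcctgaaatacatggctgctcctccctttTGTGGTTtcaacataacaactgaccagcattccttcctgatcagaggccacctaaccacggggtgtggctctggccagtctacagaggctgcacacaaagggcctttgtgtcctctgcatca
GPR32: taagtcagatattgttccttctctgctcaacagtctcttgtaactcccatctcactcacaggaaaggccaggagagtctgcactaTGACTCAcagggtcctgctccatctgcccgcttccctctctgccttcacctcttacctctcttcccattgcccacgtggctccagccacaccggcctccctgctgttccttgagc
FFAR2: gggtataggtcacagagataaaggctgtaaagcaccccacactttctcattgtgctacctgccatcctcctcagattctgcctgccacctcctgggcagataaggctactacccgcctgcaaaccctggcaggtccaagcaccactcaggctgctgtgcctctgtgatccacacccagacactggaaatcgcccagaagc

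SCGB2B2 belongs to the secretoglobins, small secreted proteins. Its region was 430 bp wide, with fold enrichment between 13.2 and 21 in the 9 libraries that held a peak. HAUS5 is a subunit of the augmin complex of the mitotic spindle, and its region of 484 bp reached 11.1 to 19.6. GPR32 is a receptor for pro-resolving lipids next to the kallikrein genes, with a region at 11 to 22. FFAR2, a receptor for short-chain fatty acids, had 11 to 15.4. The AP-1 letters TGANTCA occurred in the SCGB2B2 and GPR32 windows, the RUNX letters TGTGGTT in the HAUS5 window, and none of the 12 motifs in the FFAR2 window.

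The opposite class were gained members, with a peak in all 6 KO libraries and no WT library. Intronic regions of PSG11-AS1 and SUGP1 had among the highest ranks of those with a peak in all 6 rescue libraries. The PSG11-AS1 region had fold enrichment of 12.6 to 19.3, and a region of SUGP1, a splicing-related G-patch protein, had 9.48 to 14.1.

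Chromosome 19 outside zinc finger genes held a smaller share of the accessible bases in KO than in WT, and a larger share again in rescue. Of all bases under peaks in a library, 2.77, 2.80 and 2.83% lay there in WT. The share was 2.37, 2.34 and 2.32% in KO1 and 2.39, 2.41 and 2.38% in KO2. In Rescue1 it was 2.73, 2.72 and 2.69%, and in Rescue2 2.63, 2.68 and 2.67%. No KO library overlapped any WT or rescue library, and every rescue library lay below every WT library. The chromosome had been singled out with a fall already known, so the comparison is not independent evidence of its direction.

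**Figure D1:**
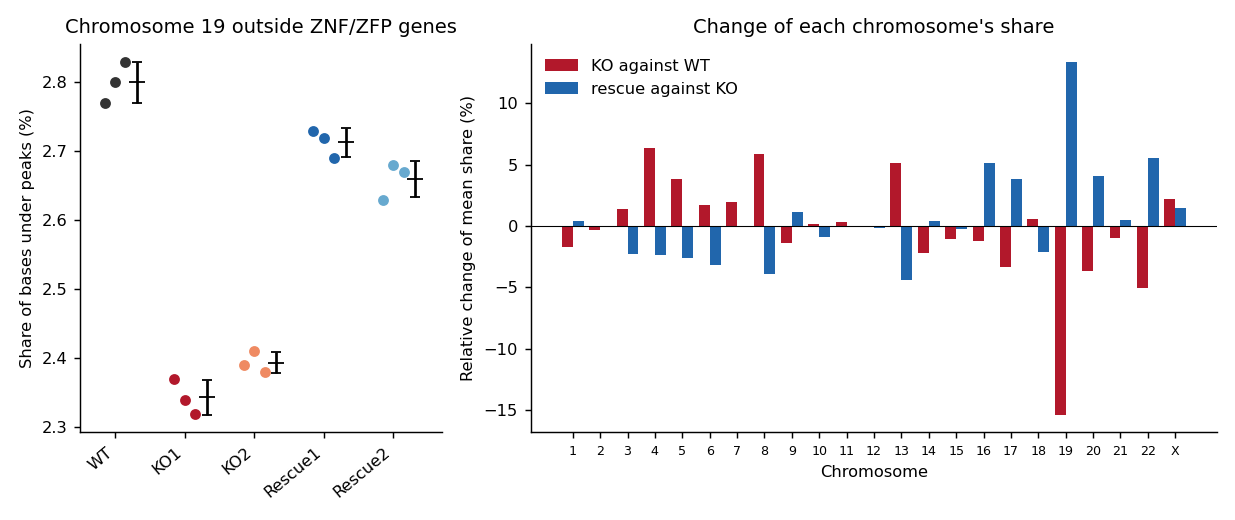
Share of bases under peaks (%) on chromosome 19 outside zinc finger genes, with 1 point per library for WT, KO1, KO2, Rescue1 and Rescue2 and the mean ± SD of each group. WT libraries sit between 2.77 and 2.83%, KO libraries between 2.32 and 2.41%, and rescue libraries between 2.63 and 2.73%.

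Mean shares (± SD) were 2.8 ± 0.0274% over the 3 WT libraries, 2.37 ± 0.0347% over 6 KO and 2.69 ± 0.0377% over 6 rescue libraries. KO minus WT was -0.431 percentage points, or -15.4% of the WT share, with p = 0.0238 in a two-sided exact permutation test of the libraries, the smallest value that 3 against 6 libraries can give. Rescue minus KO was 0.318 points, or 13.4% of the KO share (exact permutation p = 0.00216, the smallest that 6 against 6 can give). Over 23 chromosomes, chromosome 19 ranked 1 for both the fall and the rise as a percent of its share, ahead of chromosome 22 (-5.05% and 5.54%) in both, with chromosome 20 next in the fall (-3.71%) and chromosome 16 in the rise (5.17%). The ZNF and ZFP genes of chromosome 19, counted apart, moved the same way, with 0.4 to 0.419% of the bases in WT, 0.294 to 0.32% in KO and 0.357 to 0.382% in rescue. Of their 575 regions 37 were lost (6.43%), and 17 of these returned (45.9%). An unadjusted p under 0.05 was reached by a lower share in KO on 34.8% of the chromosomes and by a higher share in rescue on 26.1%. Both arms took part, with 1.33% of the bases on the p arm in WT, 1.16% in KO and 1.29% in rescue, and 1.47%, 1.21% and 1.40% on the q arm. Shares are relative to each library's own total. In bases without scaling, KO libraries held 1265 to 1465 kb and overlapped the WT libraries at 1384 to 1558 kb, with a difference of -123.1 kb (exact permutation p = 0.0952).

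Of the 6342 members, 278 were lost in KO, which is 4.38% against 2.48% of all regions. Gained members numbered 136, or 2.14% against 4.79% of all regions. Of the lost members, 96 had a peak in all 6 rescue libraries, or 34.5% of those lost, and 57 had one in no rescue library, or 20.5%. On all other chromosomes those proportions were 11.6% and 42.7% of 6993 lost regions. Over all regions, 0.314% were lost and returned. These counts describe the libraries that chose the classes and carry no test.

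Gained members followed the other course. A peak was present in all 6 rescue libraries in 73 of 136, or 53.7%, against 44.7% of the gained regions on other chromosomes. Only 6, or 4.41%, were gone from every rescue library, against 17.2% elsewhere and 0.818% of all regions. These were regions of PLEKHA4, RANBP3, C5AR1, KLF2, GADD45B and the lncRNA ENSG00000291235. KLF2 is a Krüppel-like transcription factor, GADD45B a stress-response protein and C5AR1 the receptor for complement C5a. Fold enrichment in these 6 regions lay between 2.61 and 11.5.

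The lost and returned members lay farther from starts than those that stayed away. The median distance to a coding start was 7382 bp against 2034 bp. Of the returned members 33.3% lay between genes, whereas 43.9% of the members lost and in no rescue library were promoters. The median widths were 321.5 and 195 bp. A region joins the peaks of all libraries, and returned members have peaks in more libraries by definition, so these widths cannot be compared as a trait of the sites. Of all lost members, 91 were promoters (32.7%). Named members of the class that stayed away were the promoter regions of KLK6, CHST8, a sulfotransferase, and the lncRNA ENSG00000291101, exon regions of ENSG00000176593 and ZBTB45, and an intergenic region near DUXA. Gained members had a median GC content of 51.7% against 55.3% in lost members, and 47.1% lay in introns.

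Whether the loss came back was also measured with libraries that did not define which members were lost. Chromosome 19 itself was chosen with earlier results of these data known. The comparisons that follow, for lost and for gained members, are therefore not independent evidence about the chromosome. When lost was defined on WT and KO1 alone, 553 members qualified. KO2 libraries held a peak in 31.5, 31.8 and 41.4% of them, Rescue1 libraries in 69.1, 65.3 and 65.1%, and Rescue2 libraries in 81.9, 76.7 and 66.7%. Every rescue library was above every KO2 library. The means were 34.9 ± 5.64% (SD, n = 3) and 70.8 ± 6.94% (SD, n = 6), a difference of 35.9 points (exact permutation p = 0.0238, the smallest possible). On other chromosomes the same definition took 13540 regions, with 30.6% in KO2 and 47.5% in rescue. Taken per library as chromosome 19 minus other chromosomes, rescue exceeded KO2 by 18.9 points (exact permutation p = 0.0238). Rescue libraries also held a peak in a larger proportion of all members, 69.4 to 83.6% against 62.9 to 70.7% in KO2, and its part in this difference was not tested.

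**Figure D2:**
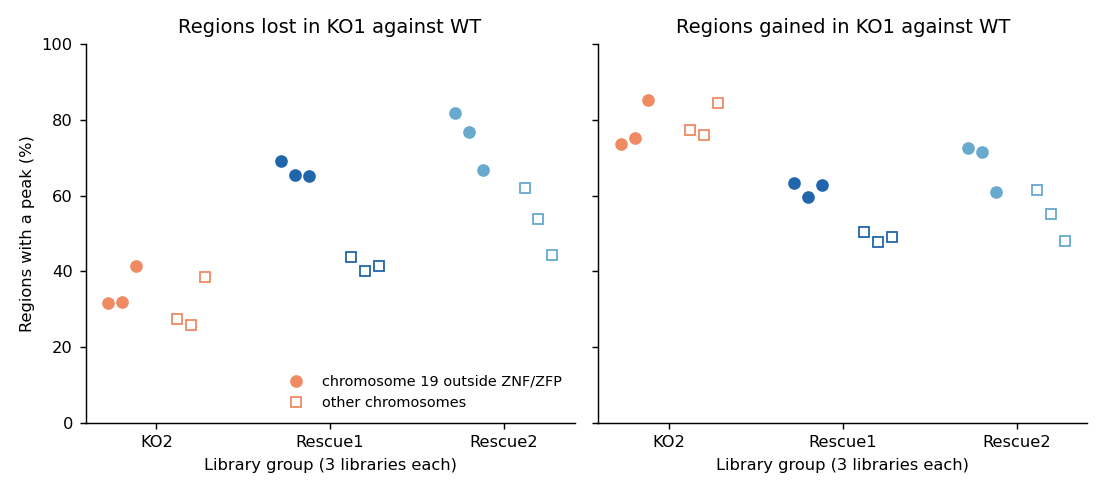
Percent of the members lost or gained in KO1 that held a peak in each KO2, Rescue1 and Rescue2 library (1 point per library), for chromosome 19 outside zinc finger genes and for all other chromosomes. Members lost in KO1 lie at 31.5 to 41.4% in KO2 and 65.1 to 81.9% in rescue, and members gained in KO1 at 73.5 to 85.1% and 59.5 to 72.6%.

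For the 215 members gained in KO1, a peak was present in 73.5, 75.3 and 85.1% of them in the KO2 libraries and in 59.5 to 72.6% in the rescue libraries. The difference was -12.9 points (exact permutation p = 0.0238). Its direction depended on which clone chose the members. With gained members defined on KO2 and measured in KO1, rescue exceeded KO1 by 11.2 points (exact permutation p = 0.0238). On other chromosomes 20600 regions were gained in KO1, with 79.2% in KO2 and 51.9% in rescue, and chromosome 19 minus the others was higher in rescue than in KO2 by 14.4 points (exact permutation p = 0.0238). Over all members, gained or not, a peak was present in a mean of 65.5% in KO2 and 75.1% in rescue. On other chromosomes these means were 68.7% and 67%. The part of this general difference in the 14.4 points was not tested.

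Loss was mapped along the arms in 1 Mb bins. The arms were divided at the largest gap between neighbouring members, from 24.9 to 27.6 Mb. Members occupied 25 bins of the p arm and 32 of the q arm, and 53 bins had enough bases under peaks to be tested. In limma with Benjamini-Hochberg adjustment over all 2713 bins of the genome, on bases under peaks scaled to each library's total, 46 of the 53 bins fell in KO and 2 rose. Over the genome 38.7% of bins fell and 37.7% rose. In rescue against KO, 46 rose and 0 fell (the adjusted p missed the threshold in the other 7), where 34.4% of all bins rose and 38.2% fell, and 43 bins fell and then rose. Both comparisons share the KO libraries. Scaling set much of the split. Without it 19 bins were called in KO, 17 lower and 2 higher, where the whole genome gave 134 lower and 948 higher. In rescue 36 then rose and 0 fell, where the whole genome gave 590 higher and 429 lower.

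**Figure D3:**
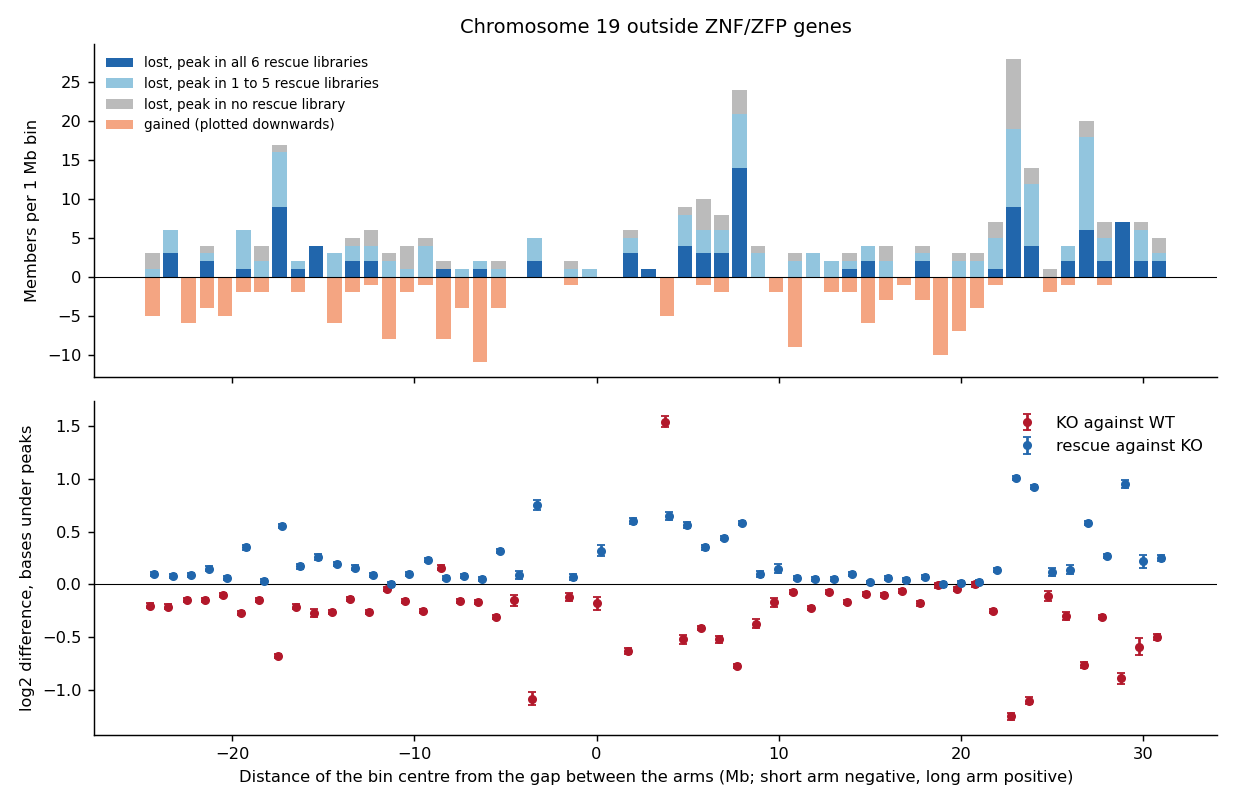
Lost and gained members per 1 Mb bin of chromosome 19 (top), and the log2 difference in bases under peaks of KO over WT and of rescue over KO (bottom, ± SE). The x axis is the distance of the bin centre from the gap between the arms (Mb, p arm negative). Every tested bin has the same marker, whether or not limma called it. The lowest KO value is -1.25 at 50 to 51 Mb, and the highest is 1.54 at 31 to 32 Mb.

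The q arm carried more of the loss. It held 191 lost members of 3250 (5.88%), against 87 of 3092 (2.81%) on the p arm. Over all regions 2.48% were lost, so the p arm was near that share. Of the lost members 68 on the q arm and 28 on the p arm returned. Gained members were 62 on the q arm (1.91%) and 74 on the p arm (2.39%), where 4.79% of all regions were gained. A fall of more than 0.5 on the log2 scale was seen in 10 bins of the q arm and 2 of the p arm. The 5 bins with most lost members held 103 of the 278, or 37.1%, with 9.29% of all members. These bins start at 50, 35, 54, 7 and 51 Mb.

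The bin at 50 to 51 Mb lost most, 28 of 126 members, and had 0 gained. It holds the SHANK1 gene, the first kallikrein genes and the lncRNA ENSG00000287001. Peaks covered 25.4 to 28.6 kb in WT, 7.99 to 15.6 kb in KO and 22.6 to 29.8 kb in rescue. KO did not overlap the other groups, and rescue spanned the WT values. The KO clones differed, with a mean of 8.3 kb in KO1 and 14.1 kb in KO2. KO2 exceeded KO1 by 0.61 on the log2 scale (limma adjusted p = 2.8e-21), a comparison added after the data were seen. The log2 difference was -1.25 ± 0.03 (SE, limma adjusted p = 3.81e-37) in KO and 1.01 ± 0.02 (adjusted p = 5.02e-36) in rescue. Of its lost members 9 returned and 9 had a peak in no rescue library.

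At 51 to 52 Mb, where the remaining kallikrein and the SIGLEC genes lie, the KO clones parted further. Peaks covered 21.6 ± 1.91 kb in WT (SD, n = 3), 5.34 kb in KO1, 17 kb in KO2 and 21.4 ± 3.56 kb in rescue (SD, n = 6). The KO log2 difference was -1.10 and the rescue difference 0.92, both called by limma. KO2 exceeded KO1 by 1.34 (limma adjusted p = 7.49e-35), a comparison chosen after the data were seen.

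The bin at 35 to 36 Mb lost 24 of 149 members, 4 of them at NPHS1, and 14 returned. Peaks covered 36.7 ± 2.55 kb in WT (SD, n = 3), 22.5 ± 1.77 kb in KO and 36 ± 2.81 kb in rescue (SD, n = 6 each). At 54 to 55 Mb, with the LAIR1 and LILR leukocyte receptors, 20 of 108 members were lost and the cover was 24.2, 14.7 and 23.9 kb. At 7 to 8 Mb, with ARHGEF18, a guanine nucleotide exchange factor, 17 of 109 were lost and the cover was 29.3, 19.1 and 29.9 kb. The KO log2 differences of these 3 bins were -0.77, -0.76 and -0.68, and the rescue differences 0.58, 0.58 and 0.55. In each of them all KO libraries lay below all WT and rescue libraries.

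Bins with fewer members varied in how much came back. At 56 to 57 Mb all 7 lost members returned, 4 of them at ZSCAN5A, a zinc finger gene that the rule kept by its name. Peaks in this bin covered 6.11 to 7.07 kb in WT, 2.18 to 3.9 kb in KO and 7.03 to 8.99 kb in rescue. At 21 to 22 Mb the cover was 4.9 kb in WT, 1.47 kb in KO and 3.99 kb in rescue. The bin with CCNE1, which encodes cyclin E, and URI1, a prefoldin-like chaperone, at 29 to 30 Mb, fell by 0.63 and rose by 0.60. The bin at 57 to 58 Mb, with AURKC, DUXA and ZSCAN4, lost 7 of 18 members (38.9%) and 2 returned. Its cover of 4.63 to 6.99 kb in WT, 1.83 to 4.94 kb in KO and 3.54 to 5.36 kb in rescue overlapped between all groups, with log2 differences of -0.59 and 0.22. At 36 to 37 Mb 4 of 33 members were lost and 0 returned, with log2 differences of -0.37 and 0.10.

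**Figure D4:**
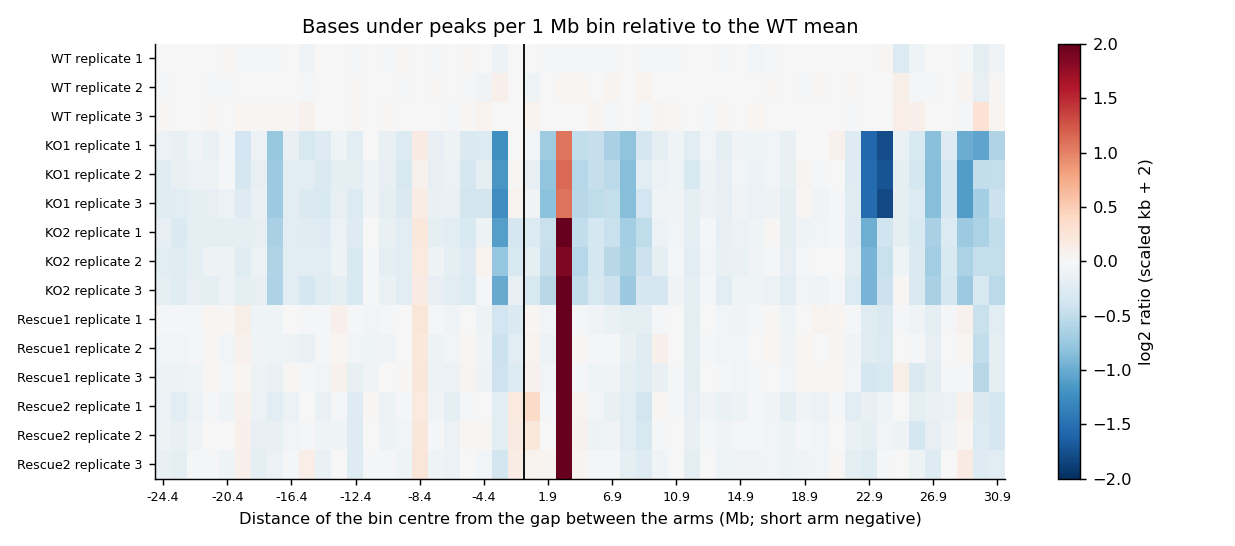
Log2 ratio of scaled bases under peaks to the WT mean in each 1 Mb bin of chromosome 19 (columns) and library (rows), with the colour scale ending at 2 in either direction. KO1 and KO2 libraries are below WT over most of the q arm, KO1 most so at 50 to 52 Mb, and the bin at 31 to 32 Mb is above WT in every KO and rescue library.

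The bin at 31 to 32 Mb rose most. It is occupied by TSHZ3, a teashirt-family transcription factor needed for smooth muscle of the ureter. Peaks covered 0.698 to 0.751 kb in WT, 3.65 to 10.4 kb in KO and 8.8 to 14 kb in rescue. The 3 groups together ran from low in WT to high in rescue, with KO and rescue overlapping. The log2 difference was 1.54 in KO and a further 0.65 in rescue, both called by limma, and all 5 gained members kept their peaks in rescue. At 16 to 17 Mb, the other bin that rose, the cover was 32.8 kb in WT, 39.9 kb in KO and 43.4 kb in rescue (log2 difference 0.16). Gained members were most numerous at 18 to 19 Mb (11), 46 to 47 Mb (10), 38 to 39 Mb (9), and 13 to 14 and 16 to 17 Mb (8 each). The bins at 18 to 19 and 38 to 39 Mb nevertheless fell in scaled bases, by 0.17 and 0.07, and without scaling neither fall was called. At 13 to 14 and 46 to 47 Mb the KO differences of -0.04 and -0.01 did not pass the test.

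The kallikrein genes, 15 neighbouring genes at chr19:50819146-51084245 that encode secreted serine proteases, held the most concentrated loss. Of 17 members within 5 kb of them, 12 were lost (70.6%), 3 returned in every rescue library and 5 were in none. Among the 17, 14, 14 and 15 held a peak in the WT libraries, 0 in each KO1 library, and 2, 1 and 2 in KO2. Rescue1 libraries had 8, 7 and 8 and Rescue2 libraries 9, 11 and 7. KO and rescue did not overlap, and no rescue library reached WT.

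Lost members were also assigned to single kallikrein genes, which need not lie within 5 kb. Of these, the promoter region of KLK2, a promoter region of KLK10 and a region near KLK14 had peaks in every rescue library. The KLK14 region, at chr19:51093917-51094162, lies more than 5 kb past the kallikrein genes and is outside the set counted within 5 kb. Not every returned member of that set is named here. The promoter region of KLK6, a kallikrein studied in brain, and 2 regions at KLK1, the tissue kallikrein that releases kinins and is made in the kidney, had no peak in any rescue library. Peaks at the KLK15 promoter region came back in 4 of 6 rescue libraries. In the stretch of most members without a KO1 peak, 21 consecutive members that each held a peak in all WT libraries spanned 279.4 kb at chr19:50818211-51097625. KO2 libraries held 5, 4 and 6 of the 21, Rescue1 13, 13 and 12, and Rescue2 15, 16 and 14.

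Stretches of fewer members lay elsewhere on the q arm. A KO1 stretch of 11 members over 133.3 kb covered CD33, SIGLECL1 and IGLON5, and KO2 held 5, 4 and 6 of them. Another KO1 stretch of 11 members, more widely spaced over 1027 kb at chr19:56638072-57664878, ran past DUXA and AURKC, with 2, 1 and 4 held in KO2 and 6 to 10 in rescue. Of the stretches without a KO2 peak, the one with most members was 7 from KLK4 to CTU1, also absent in KO1. Another of 6 members ran from LAIR1 to TTYH1, and another of 6 at ZSCAN5A had a peak in every member in every rescue library. Stretches of WT members without a peak were at most 3 members long in Rescue1 and 2 in Rescue2.

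Other gene families had smaller proportions of lost members, read against 4.38% of all members and 2.48% of all regions. SIGLEC genes, receptors for sialic acid on leukocytes, had 14 members, of which WT libraries held 8, 8 and 7, KO1 0 each and KO2 5, 4 and 4. Rescue libraries held 8 to 13 of them. NLRP genes, of the NOD-like receptor family, had 21 members, with 11 in each WT library, 5 in each KO1, 7 to 9 in KO2 and 9 to 17 in rescue. FFAR genes lost 2 of 5, LILR genes 2 of 10, CYP4F genes, which encode fatty acid hydroxylases, 2 of 14, and olfactory receptor genes 2 of 15. PSG genes, made in placenta, lost 3 of 63 (4.76%) and CEACAM adhesion genes 1 of 50 (2%), near those shares. KIR genes, receptors of natural killer cells, had 0 of 8 lost in both clones, but WT libraries held 8, 7 and 7 of the 8, KO1 1, 2 and 3, and KO2 6, 6 and 7. Rescue libraries held 6 to 8. The KIR locus tested, KIR2DL1, gave log2 differences of -0.93 and 0.50. None was lost among 15 members of CYP2, 12 of FXYD, 4 of apolipoprotein, 13 of ADGRE and 12 of chorionic gonadotropin genes. The microRNA genes had 204 members, with 2 lost and 6 gained.

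Gene loci, each a protein-coding gene with 5 kb on both sides, gave the genes involved. Of 941 loci tested, 453 fell in KO (48.1%, against 37.6% of all 16714 loci) and 44 rose (where 13.0% of all loci rose) by limma with Benjamini-Hochberg adjustment. In rescue against KO 311 rose (33%, against 23.9%) and 60 fell (where 13.1% of all loci fell). The median log2 difference was -0.17 in KO against -0.11 over all loci, and 0.07 in rescue against 0.03. The median over all loci moved from -0.11 to -0.01 when bases were not scaled, and 293 loci were then called in KO, 240 lower and 53 higher, with 1969 lower and 2383 higher over all loci. Values below are scaled log2 differences of bases plus 200, which understates changes where few bases are covered.

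The loci that fell most in KO were KLK15, DMKN, NLRP2, NPHS1, SHANK1, SIGLECL1, STXBP2 and NLRP7. DMKN encodes dermokine, a secreted protein of epithelia. Peaks covered 1735, 1792 and 1685 bases there in WT, 292, 216 and 142 in KO1, 125, 177 and 210 in KO2, 1747, 1537 and 1895 in Rescue1, and 1791, 1772 and 1611 in Rescue2. KO libraries lay far below both other groups, which overlapped each other. The log2 difference was -2.42 ± 0.10 in KO (limma adjusted p = 4.39e-16) and 2.25 ± 0.09 in rescue (adjusted p = 5.94e-17), and both of its lost members returned.

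KLK15 was the kallikrein locus with enough bases to test. It held 1764, 1746 and 1927 bases in WT, 0 in each KO1 library, 261, 269 and 521 in KO2, and 952 to 1257 in rescue. All rescue libraries were thus between KO and WT. The fitted log2 difference was -2.73 ± 0.12 in KO (limma adjusted p = 3.26e-16) and 1.89 ± 0.09 in rescue (adjusted p = 1.71e-14).

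NPHS1 encodes nephrin, the adhesion protein of the podocyte slit diaphragm. Its locus, which overlaps that of the nephrin-like KIRREL2, held 2281 to 2644 bases in WT, 294 to 675 in KO and 951 to 1965 in rescue, again without overlap between groups. The log2 differences were -2.08 and 1.23, with 4 of its 6 members lost, 1 returned and 2 in no rescue library. KIRREL2 gave -1.47 and 0.83 from partly the same peaks.

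STXBP2, a syntaxin-binding protein of exocytosis, held 831 to 1484 bases in WT, 0 to 260 in KO and 892 to 1279 in rescue (log2 -1.96 and 1.74). TTYH1, a tweety-family membrane protein, held 858 to 1185, 82 to 214 and 1081 to 1514 bases (log2 -1.79 and 1.97). TDRD12, a tudor-domain protein of the piRNA pathway, held 2251 to 2742, 467 to 1155 and 2226 to 4219 bases (log2 -1.72 and 1.77). In these 3 loci rescue reached the WT range. COL5A3, a collagen V chain, gave -1.61 and 1.81. NLRP2 and NLRP7, neighbours whose loci overlap, gave -2.19 and -1.95 in KO and 1.52 and 1.20 in rescue.

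**Figure D5:**
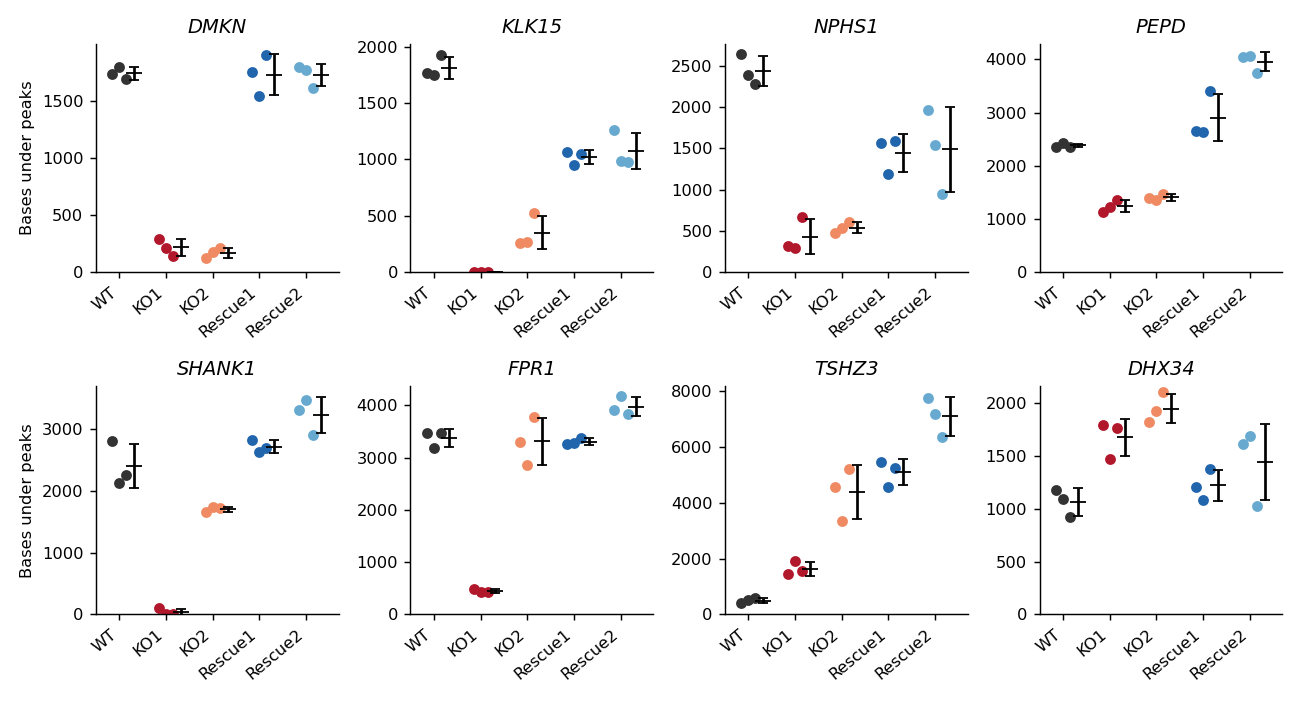
Bases under peaks in each library (points) at 8 loci of chromosome 19, with the mean ± SD of WT, KO1, KO2, Rescue1 and Rescue2. DMKN, KLK15 and NPHS1 are low in both KO clones, SHANK1 and FPR1 are low mainly in KO1, PEPD is lowest in KO and highest in Rescue2, and TSHZ3 and DHX34 are higher in KO than in WT.

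Several loci were low in 1 KO clone more than in the other. SHANK1, a scaffold protein of the synapse, held 2806, 2135 and 2252 bases in WT, 102, 0 and 0 in KO1, 1652, 1734 and 1720 in KO2, 2625 to 2829 in Rescue1 and 2898 to 3463 in Rescue2. KO2 minus KO1 was 3.03 (limma adjusted p = 1.47e-16). SIGLECL1 held 0 bases in every KO1 library and 1501, 1323 and 1496 in KO2, with a difference of 3.02. Its Rescue1 libraries, at 777 to 1016 bases, lay below KO2, and against KO2 alone the rescue difference was -0.09 rather than 1.42.

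FPR1 and FPR2 encode receptors for formylated bacterial peptides, and their loci overlap. FPR1 held 3180 to 3475 bases in WT, 487, 425 and 429 in KO1 and 3306, 2857 and 3770 in KO2, so that KO2 overlapped WT. With KO2 alone neither its KO difference (-0.16) nor its rescue difference (0.10) was called, nor the KO difference of FPR2 (-0.24). FPR2 held 0 bases in each KO1 library and 880 to 1352 in KO2, and its rescue difference was 1.30 against both KO clones and -0.04 against KO2 alone. Over the chromosome KO2 was higher than KO1 in 54 of 941 loci and lower in 21, where 4.19% of the loci of the genome were called higher and 3.46% lower. The higher loci included 20 with a difference above 1, and 0 of the lower loci reached that size. In 1 Mb bins KO2 was higher in 15 of 53 and lower in 5, where 16.5% of the bins of the genome were called higher and 11.7% lower. Between the rescue clones Rescue2 was higher in 6 bins and lower in 12, where the genome gave 18.7% and 13.8%. It was higher in 13 loci and lower in 23, where the genome gave 2.61% and 3.31%.

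Loci that rose in KO were fewer, and 2 of the 8 named here fell again in rescue. TSHZ3 held 398, 505 and 578 bases in WT, 1433, 1920 and 1538 in KO1, 4571, 3325 and 5217 in KO2, 4558 to 5459 in Rescue1 and 6336 to 7754 in Rescue2. It was lowest in WT and higher in KO2 than in KO1, and all 4 of its gained members, its promoter among them, kept their peaks. The log2 difference was 1.97 ± 0.10 in KO (limma adjusted p = 5.04e-15) and 1.06 ± 0.08 in rescue (adjusted p = 3.14e-11). ARRDC5, an arrestin-domain protein, rose by 0.85 and SIN3B, a scaffold of histone deacetylase complexes, by 0.70, with rescue differences of 0.04 and -0.13 that did not pass the test.

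DHX34, an RNA helicase of nonsense-mediated decay, rose and then fell. It held 919 to 1178 bases in WT, 1475 to 2103 in KO and 1029 to 1694 in rescue, with rescue overlapping both groups (log2 0.58 and -0.46). CYTH2, an exchange factor for ARF GTPases, gave 0.51 and -0.25, although without the 5 kb flanks the KO call was lost and the rescue value was 0.10. RANBP3, a cofactor of nuclear export, rose by 0.49. CACNG6, a calcium channel subunit, rose by 0.46, which missed the threshold with stricter peaks (0.31). The clathrin adaptor AP1M1 rose by 0.42, a call that was lost without flanks (0.18).

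Falls in rescue against KO were led by LRRC25 (-0.59), the B cell receptor chain CD79A (-0.58), the mucin-like FCGBP (-0.47), DHX34, PLEKHA4 (-0.36) and GDF15 (-0.36). GDF15, a stress-induced cytokine, held 3497 to 4014 bases in WT, 2283 to 3160 in KO and 1850 to 2644 in rescue. GDF15 and LRRC25, neighbours whose loci overlap, had already fallen in KO, by 0.48 and 0.77, and so moved further from WT in rescue. GDF15 without its flanks had a KO difference of 0.26 in place of -0.48 and a rescue difference of -0.02.

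Genes were also grouped by role, and each count reads against the 37.6% of all loci and 48.1% of chromosome 19 loci that fell in KO, and the 23.9% and 33% that rose in rescue. The lists were broad, and overlapping loci were each counted. SHANK1 was listed under epithelial junction and adhesion, and NPHS1 and the overlapping KIRREL2 under kidney transport and metabolism. Of 27 kidney transport and metabolism loci tested of 36 listed, 19 fell in KO (70.4%) and 0 rose, and 12 rose in rescue (44.4%) and 0 fell, with median log2 differences of -0.26 and 0.13. PEPD, prolidase, held 2361, 2425 and 2363 bases in WT, 1141 to 1473 in KO and 2645 to 4070 in rescue (log2 -0.87 and 1.18), and both of its lost members returned. Rescue exceeded WT at this locus in every library. ETFB, an electron transfer flavoprotein subunit of mitochondria, fell by 1.10 in KO and rose in rescue. It held 1154 to 1430 bases in WT, 149, 335 and 256 in KO1, 998 to 1188 in KO2 and 1020 to 1927 in rescue, with KO2 above KO1 by 1.56 on the log2 scale.

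Among 22 epithelial junction and adhesion loci of 24 listed, 10 fell (45.5%, near the share over the chromosome) and 2 rose in KO, and 11 rose (50%) and 1 fell in rescue. ICAM4 and ICAM5, intercellular adhesion molecules in adjoining loci with identical values, gave -1.44 and 1.39. CLDND2 gave -1.16 and 0.93 from peaks shared largely with ETFB, and against KO2 alone the rescue calls of CLDND2 and ETFB were lost (0.21 and 0.22). Among 19 growth factor and receptor loci of 20, 13 fell (68.4%) and 1 rose in KO, and 8 rose (42.1%) and 1 fell in rescue. The insulin receptor INSR gave -0.71 and 0.55, the cytokine-receptor kinase JAK3 -0.71 and 0.48, the TGF-beta family member GDF1 -0.86 and 0.83, and the insulin-signalling kinase AKT2 -0.60 and 0.15. The rescue call of AKT2 was lost against KO2 alone (0.06), with Rescue1 alone (0.11) and without flanks (0.10).

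Of 25 chromatin regulator loci, 13 fell (52%, near the share over the chromosome) and 2 rose in KO, and 11 rose (44%) and 1 fell in rescue. CARM1, an arginine methyltransferase, fell by 0.64 and rose by 0.34, the rise not being called with 150000 peaks per library (0.22). DNMT1, the maintenance DNA methyltransferase, held 3182 to 3734 bases in WT, 2450 to 3217 in KO and 3445 to 4485 in rescue, with an overlap of KO and WT in 1 library (log2 -0.36 and 0.37). The nuclear matrix-binding SAFB gave -0.36 and 0.33. Without flanks the KO calls of DNMT1 (-0.30) and SAFB (-0.47) were lost. PRMT1, another arginine methyltransferase, fell by 0.57 in KO and gave -0.14 in rescue, which did not pass the test.

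Of 28 transcription factor loci tested of 30, 11 fell (39.3%, near the share over all loci) and 2 rose in KO, and 6 rose (21.4%) and 3 fell in rescue. The liver X receptor beta gene NR1H2 gave -0.88 and 0.47 and the ETS factor ETV2 -0.85 and 0.57, whereas SPIB fell by 0.67 with a rescue difference of 0.22 that did not pass the test. Among 17 interferon and inflammation loci of 21, 10 fell (58.8%) and 1 rose in KO, and 6 rose (35.3%) and 1 fell in rescue. FCGRT, the neonatal Fc receptor, gave -0.65 and 0.22, and the rescue call was lost with Rescue2 alone (0.06) and under 3 other alternatives. Ribosomal protein and elongation factor loci, kept as housekeeping genes, had 3 of 14 falling (21.4%) and 0 rising in KO, and 2 rising in rescue (14.3%). RPS9 gave -0.48 and 0.39. RPS28 gave -0.45 and 0.32, and both calls were lost with 150000 peaks per library (-0.24 and 0.14). EEF2 gave -0.21 in KO, a call that was lost without scaling (-0.11), with KO1 alone (-0.14), without flanks, without WT replicate 3 (-0.11) and without KO1 replicate 1 (-0.18).

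Single genes with most lost members were the lncRNA ENSG00000287001 at chr19:50095898-50148302 with 8 of 30 members, and LAIR1, NPHS1, TDRD12 and ZSCAN5A with 4 each. All 4 of ZSCAN5A had a peak in every rescue library, as did 0 of the 4 of LAIR1. ARHGEF18 lost 3 of 23. Most gained members lay at SPINT2, an inhibitor of serine proteases, with 4 of 19, at TSHZ3 with 4 of 41, and at CACNA1A, DNM2, DOT1L and NFIC with 3 each. DOT1L encodes the histone H3 lysine 79 methyltransferase and NFIC a nuclear factor I protein. All 3 gained members of NFIC kept their peaks in every rescue library, against 1 of DOT1L and 0 of CACNA1A and DNM2.

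Motif letters were counted in the middle 300 bases of each region on both strands, as a description of the sequences and not of bound factors. AP-1 letters (TGANTCA) occurred in 29.2% of lost and returned members and 17.6% of lost members, against 22.2% of all members and 31.7% of all regions. Among gained members the share was 30.1%. The SP/KLF letters GGGCGGGG occurred in 7.29% of lost and returned, 12.2% of lost and 2.94% of gained members, against 13.3% of all members and 3.59% of all regions. The core letters CCANNAGGG of CTCF were in 13.5% of lost and returned, 11.5% of lost and 4.41% of gained members, against 9.9% of all members and 6.63% of all regions. C/EBP letters (TTGCNNAA) were in 11.5% of lost and returned, 6.83% of lost and 16.2% of gained members, against 9.05% of all members and 15% of all regions. Of the others, TEAD letters (ACATTCC) were in 7.55% of lost and 2.94% of gained members, against 4.54% of all members and 6.29% of all regions, and NF-kB letters (GGGNNTTCC) in 10.4% and 8.09%, against 8.51% and 6.46%. RUNX (TGTGGTT) was in 6.47% and 8.82%, against 6.75% and 10.2%. The POU octamer ATGCAAAT, the ETS letters CCGGAAGT, the HNF4 letters CAAAGTCCA and the grainyhead letters AACNNGTT were each in fewer than 3% of lost and of gained members. In that order they were in 1.34%, 1.29%, 0.394% and 2.37% of all members, and in 2.03%, 0.532%, 0.412% and 4.47% of all regions. Matches to different motifs could share bases. Forkhead letters (TGTTTAC) were in 1.8% of lost and 7.35% of gained members, against 3.22% of all members and 5% of all regions.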

How the data were processed

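ATAC-seq libraries were aligned to hg38 with BWA (0.7.17 per the submitters' processing notes), and peaks were called in each library with MACS2 2.2.7.1. The deposited narrowPeak lists give a score, a fold enrichment and -log10 p and q per peak. The lowest -log10 q was 1.3. The lists hold no read counts, so depth is unknown and the DiffBind 2.14.0 test named in the notes was not run. The fold enrichment deposited by the authors was used to rank peaks within a library, and -log10 p and q for smaller peak sets. The score column, which the authors' caller derives from -log10 q, was not used.

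Regions were annotated with GENCODE 44. The members, gene lists and tests were chosen with earlier results of these data known. Bases under peaks were summed by peak midpoint in 1 Mb bins and in gene loci (5 kb flanks), scaled to the library total, and tested with limma 3.58.1 (R 4.3.3, trend, Benjamini-Hochberg, adjusted p under 0.05) on log2 with pseudocounts of 2000 and 200 bases, for bins with a mean of at least 2000 and loci with at least 500 bases. Group means of all 5 groups entered the fit. Single measures used exact two-sided permutation tests (Python 3.11.15). Nothing in the labels places replicates in separate cultures, so p-values measure the spread between libraries. Named loci were up to 8 with the largest fall and rise in KO and up to 6 each way in rescue, with up to 4 of each list by the size of the KO difference. Named regions were up to 6 of each class by mean rank of fold enrichment, with up to 5 bins and 6 genes with most lost or gained members. Alternatives were other pseudocounts, filters, flanks, peak sets, scaling, clones and left-out libraries. The KO2 against KO1 and Rescue2 against Rescue1 comparisons were added after the data were seen. Some items are not reported here.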

Additional observations from a re-analysis of the deposited data

Results flagged for a closer look

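The KO clones differed from each other by more than 1 on the log2 scale, with limma adjusted p under 0.05, in 9 of the named loci and 1 of the named bins, always with more bases under peaks in KO2. The difference of KO2 minus KO1 was 3.03 at SHANK1, 3.02 at SIGLECL1, 2.70 at FPR2, 2.40 at FPR1, 1.56 at ETFB, 1.44 at CLDND2 and 1.41 at KLK15. It was 1.09 at NLRP2 and 1.27 at TSHZ3, and 1.34 in the bin at 51 to 52 Mb, which holds SIGLECL1, CLDND2, ETFB and both FPR loci. FPR1 and FPR2 share peaks, as do CLDND2 and ETFB, so these values are not independent. TSHZ3 is the locus among them that rose in KO. Among the 6 KO and the 6 rescue libraries, none stood apart in Dixon's test by its chromosome 19 share or by its percent of members with a peak. The test pooled both clones of each kind, so it can miss a library that differs from its own clone. KO2 replicate 3 held a peak in 70.7% of members, against 63.1% in KO2 replicate 1 and 62.9% in KO2 replicate 2.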

How the results depend on the processing

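Depth is unknown and peak calling in each library limits what absence means. Among named loci and bins, 2231 values under alternatives kept direction and side of the threshold, 42 lost the call, 31 gained it and 8 reversed. The cause of each change was not tested, except that fewer libraries define a class under a single clone.

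Lost members numbered 553 with KO1 alone and 808 by majority (a peak in over 50% of the libraries of 1 group and under 50% of the other), and gained members 89 with 150000 peaks per library, 215 with KO1 alone, 284 with KO2 alone and 425 by majority. Lost and returned members were 273 with KO1 alone and 407 by majority. Gained and gone members were 29 with KO1, 20 with KO2, 20 with Rescue1 and 10 with Rescue2 alone, 14 when peaks had to cover at least 50% of the region and 102 by majority. With members defined on KO1, Rescue1 alone and Rescue2 alone gave 31.6 and 40.2 points for lost members, 20.4 and 17.4 relative to other chromosomes, -16.1 and -9.61 for gained members, and 14 and 14.7 relative to other chromosomes, all at exact permutation p = 0.1, the smallest possible; gained members defined on KO2 gave 11.2. The share differed from WT by -0.456 points in KO1 alone and -0.406 in KO2 alone, and by -123.1 kb unscaled. Without scaling 19 bins and 293 loci were called in KO. Without flanks 229 loci were called in KO and 198 in rescue, of 634 tested.

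Leaving out 1 library at a time gave 282 to 362 lost, 140 to 166 gained, 96 to 119 returned and 6 to 13 gone members, the 13 without KO2 replicate 1. It gave 32.9 to 39.2 and 18.2 to 19.8 points for lost members in rescue against KO2 and relative to other chromosomes, -15.1 to -9.3 and 11.9 to 15.4 for gained members, shares of -0.445 to -0.418 in KO (without a WT library the exact permutation p cannot go below 0.0714) and 0.307 to 0.33 in rescue, 45 to 51 and 44 to 46 bins, and 425 to 495 and 348 to 370 loci.

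Reversed values were -0.96 for AP1M1, -0.00 for CACNG6 and 0.10 for CYTH2 in rescue without flanks, 0.26 for GDF15 in KO without flanks, -0.04 for FPR2, -0.09 for SIGLECL1 and 0.04 for the bin at 46 to 47 Mb in rescue against KO2 alone, and 0.04 for the bin at 38 to 39 Mb in KO unscaled.

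Whether replicate numbers pair the libraries is not given in the labels. In deviations of the bins from their group means, 2 of 30 same-numbered pairs correlated above 0.1 (r from -0.285 to 0.131). Differently numbered pairs were not set beside them, so these values cannot settle the pairing. With the replicate block the share differed by -0.431 (exact permutation p = 0.0741, the smallest possible), and 49 and 45 bins and 494 and 373 loci were called in KO and rescue.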
